A study of Mus musculus with 2 samples.

Results

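The enzymes and the activating protein that turn arachidonic acid into prostaglandins and leukotrienes were followed at gene and transcript level. The 10 genes were chosen by symbol alone, from a list of names, out of 55536 annotated genes, 22028 of them protein-coding: Pla2g4a, Ptgs1, Ptgs2, Ptges, Ptges2, Ptges3, Alox5, Alox5ap, Lta4h and Ltc4s. All 10 were found once each in the gene tables. The rule itself uses no measured value, although the list of names was drawn up with earlier results of these data known. The samples were primary macrophages grown from the bone marrow of C57BL/6J mice and given lipid A, the membrane-anchoring part of bacterial lipopolysaccharide and a ligand of the receptor TLR4, at 100 ng/ml for 75 min. Only the cytosolic fraction was used, and its total RNA was sequenced after removal of ribosomal RNA, from 1 µg of RNA and fragments of 250 to 400 nt. There were 2 libraries, numbered as biological replicates 1 and 2 of 1 group. Both carry the same donor label, and the labels give neither age nor sex, nor whether separate animals or cultures were used, so the spread between them may be technical. No unstimulated cells, other times or other fractions are analysed here, so every value below is a level and none is a response to lipid A.

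Phospholipase A2 enzymes free arachidonic acid from membrane phospholipids, and the free acid is then drawn into branches. In the prostaglandin branch, the cyclooxygenases make prostaglandin H2, which separate terminal synthases turn into prostaglandins E2, D2, F2α and I2 or thromboxane A2. In the leukotriene branch, 5-lipoxygenase, helped by its activating protein at the nuclear membrane, makes leukotriene A4, which becomes leukotriene B4 or the cysteinyl leukotriene C4. Macrophages are known producers of both classes, and the cyclooxygenase gene Ptgs2 is a textbook early gene of the response to lipopolysaccharide.

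The libraries held 55596625 and 50157146 expected counts over annotated genes. Of all protein-coding genes, 39.3% reached a mean of 1 TPM (a level scaled to the library and to transcript length). All 10 macrophage markers reached 1 TPM, with Lyz2, Tyrobp and Cd68 at the top and a list median of 353 TPM. None of 10 mast cell and basophil markers reached it, with summed levels of 0.69 and 1.03 TPM and with Mcpt4, Tpsb2, Tpsab1 and Fcer1a at 0 counts in both libraries. Of 12 neutrophil markers 5 reached 1 TPM (summed levels 42.8 and 48.5 TPM), namely S100a9, Csf3r, S100a8, Mmp8 and Ngp, while Ly6g was at 0 counts in both. Of 10 platelet markers only Pf4 did (143 and 179 TPM). Replicate 2 stood apart in nuclear RNA: all 5 nuclear RNAs with a mean of 100 counts or more were over 2-fold higher there than in replicate 1, and Malat1 read 158 and 799 TPM. The part of that difference, and of the neutrophil markers, in the values of the synthesis genes was not tested. With bulk RNA, fewer cells of a type and less RNA per cell cannot be told apart.

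Of the 10 synthesis genes, 8 reached a mean of 1 TPM, which is 80.0% of them, against 39.3% of all protein-coding genes. Rescaled to nuclear-encoded protein-coding genes alone, 9 did, against 47.3%, and at 0.5 TPM the count was again 8, against 43.6%. In the read-based quantification, a further set of deposited tables in which TPM is spread over other entries too, 5 reached 1 TPM, against 32.5%, and after the same rescaling 9 did, against 48.5%. Their median was 2.87 TPM, against 0.11 TPM over all protein-coding genes and 6.14 TPM over those that reached 1 TPM. From the highest mean to the lowest the order was Alox5ap, Ptgs2, Ptges3, Lta4h, Ptgs1, Ltc4s, Ptges2, Pla2g4a, Ptges and Alox5, and it was the same in both libraries. In the rescaled read-based values Pla2g4a and Ptges2 changed places, with part of that Pla2g4a level in a short noncoding transcript of few counts, as given below. Among neighbours in that order, only Ltc4s and Ptges2 had ranges that met, at 1.85 TPM. The 10 levels summed to 184 and 196 TPM, and Alox5ap and Ptgs2 together held 76.5% of it.

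**Figure D1:**
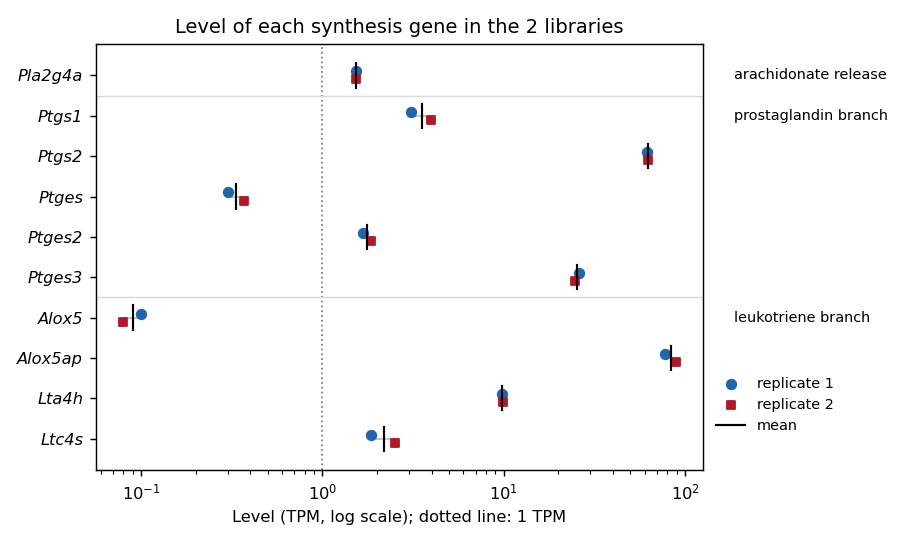
Level of each of the 10 synthesis genes in TPM (log axis), grouped by branch, with circles for replicate 1, squares for replicate 2 and a bar for their mean. Alox5ap and Ptgs2 lie furthest to the right, above 60 TPM in both libraries, and Ptges and Alox5 are the 2 genes left of the dotted line at 1 TPM.

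The sequences that go with the highest prostaglandin gene are shown first, because Ptgs2 and its sister gene Ptgs1 encode enzymes of the same reaction and differed widely in level. The 250 bases before the annotated start of each gene, from RefSeq on GRCm38.p6, are given 5′ to 3′ on the strand of the gene, with the letters of a C/EBP motif in capitals, and lie at chr1:150099781-150100030 (plus strand) for Ptgs2 and at chr2:36230176-36230425 (plus strand) for Ptgs1.
Ptgs2 promoter: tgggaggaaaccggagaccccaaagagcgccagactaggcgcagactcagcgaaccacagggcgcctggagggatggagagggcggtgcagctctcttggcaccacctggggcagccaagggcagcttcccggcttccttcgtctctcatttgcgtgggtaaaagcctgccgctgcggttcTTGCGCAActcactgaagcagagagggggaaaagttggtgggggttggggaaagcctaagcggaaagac
Ptgs1 promoter: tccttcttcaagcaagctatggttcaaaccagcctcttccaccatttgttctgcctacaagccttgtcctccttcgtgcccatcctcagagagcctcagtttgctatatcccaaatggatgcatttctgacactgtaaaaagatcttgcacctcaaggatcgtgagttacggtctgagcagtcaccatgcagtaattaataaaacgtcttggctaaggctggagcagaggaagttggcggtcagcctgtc
The GC content was 61.6% for Ptgs2 and 48.0% for Ptgs1. These windows, with the 50 bases after the start, were searched on both strands for 6 motifs, and the shares below are of 32851 promoters of the same length. The C/EBP letters TTGCNNAA (10.8% of promoters) occurred once in the Ptgs2 window, at 69 to 62 bases before the start, and not in that of Ptgs1. The core of the cyclic AMP response element, TGACGT (7.51% of promoters), lay on the reverse strand at bases 13 to 18 after the Ptgs2 start, and the E-box CACGTG (7.15%) at bases 17 to 22, so that the matches overlap. They are the capitals in the next window, chr1:150100033-150100062 on the plus strand.
Ptgs2 start: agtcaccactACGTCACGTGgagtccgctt
The kappa-B motif (4.79% of promoters), the AP-1 letters TGANTCA (7.81%) and the TATA box TATAAA (13.6%) did not occur in the windows of Ptgs2 or Ptgs1, which says only that these letters are not in them. Promoter entries were found for 9 of the 10 genes, with 10 entries in all. Outside Ptgs2, the only matches were a CACGTG in the Ptges2 window and a TATA box in one of the entries of Pla2g4a. A match of letters is a description of the sequence and not a binding site.

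The 3′ UTR of the Ptgs2 transcript is known for AU-rich elements, the binding sites of proteins that control mRNA decay. In the leading coding transcript it was 2445 bases long and held the pentamer ATTTA 14 times, where the median of 2275 3′ UTRs within 20% of its length was 4 and 1.63% held as many. It held the nonamer TTATTTATT once, and 12.8% of those 3′ UTRs held it at least once. The start of the cluster, from base 14 of the 3′ UTR at chr1:150105796-150105825 (mm10, plus strand, GENCODE M21 transcript), is shown with its 4 partly overlapping pentamers in capitals.
Ptgs2 AU-rich stretch: atATTTATTTATTTAtgtgaagaATTTAat
Of the 9 synthesis genes whose leading coding transcript has an annotated 3′ UTR, 5 held the pentamer, and 62.4% of 20717 genes did. Pla2g4a held 4 in 443 bases, a number that 2.94% of 3′ UTRs of like length reached. Ptges3 held 4 in 1186 bases, Ptges2 4 in 3444 bases and Alox5ap 2 in 419 bases. The 3′ UTRs of Ptgs1 (921 bases), Ptges (3106 bases), Lta4h (94 bases) and Ltc4s (99 bases) held none. Ptgs2 was the only one of the 9 with the nonamer, which 7.08% of the 20717 genes held. The stability of these transcripts was not measured.

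Release of arachidonate is represented by Pla2g4a, the cytosolic phospholipase A2 that prefers arachidonate-bearing phospholipids (chr1:149829618-149961290, minus strand). It read 1.54 TPM in both libraries, from 471 and 396 counts. Its rank was 7848 among the 22028 protein-coding genes. Of 16 other phospholipase A2 genes, 3 reached 1 TPM, against 39.3% of all protein-coding genes. A further 6 were at 0 counts in both libraries, where a count of 0 allows up to 3 counts. The lysosomal phospholipase gene Pla2g15 read 27.5 and 41.7 TPM, which made it 17.9 and 27.0 times the level of Pla2g4a. Pla2g7, the secreted platelet-activating factor acetylhydrolase, averaged 5.42 ± 0.502 TPM (SD, n = 2), and the secreted phospholipase Pla2g12a 1.96 ± 0.141 TPM. Pla2g6, the calcium-independent enzyme, stood below the threshold at 0.805 ± 0.00707 TPM. Pla2g4a was thus below Pla2g15, Pla2g7 and Pla2g12a in both libraries. In the read-based quantification it was below Pla2g15 and Pla2g7, but not told apart from Pla2g12a at gene level. There Pla2g4a read 0.886 and 0.969 TPM and Pla2g12a 0.887 and 0.800 TPM. The short noncoding transcript Pla2g4a-203 (247 nt) held 13.8% and 36.8% of that Pla2g4a TPM, from 2.17 and 7.34 counts. The coding transcript Pla2g4a-201 alone read 0.761 and 0.599 TPM there, below the gene-level values of Pla2g12a in both libraries.

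The cyclooxygenase genes were far apart. Ptgs2, the inducible enzyme (chr1:150100031-150108227, plus strand), read 62.04 TPM in replicate 1 and 62.39 TPM in replicate 2, a mean of 62.2 ± 0.247 TPM (SD, n = 2) from 30503 and 25802 counts. Ptgs1, the constitutive enzyme (chr2:36230426-36252272, plus strand), read 3.10 and 3.99 TPM, a mean of 3.54 ± 0.629 TPM from 916 and 975 counts. The lowest Ptgs2 value lay far above the highest Ptgs1 value. The ratio of Ptgs2 to Ptgs1 was 20.0 in replicate 1 (95% Clopper-Pearson interval 18.7 to 21.4) and 15.6 in replicate 2 (14.7 to 16.7). Those intervals cover counting error only and did not overlap, and in these values it was the Ptgs1 level that differed between the libraries. In the read-based quantification Ptgs1 read 1.58 and 1.54 TPM and Ptgs2 31.0 and 24.4 TPM. After rescaling to nuclear-encoded protein-coding genes, those values were 14.2 and 17.9 for Ptgs1 and 280 and 284 for Ptgs2. Which gene differed in the read-based values thus depended on the rescaling. It was Ptgs2 before rescaling and Ptgs1 after it, as in the values given first. All of the Ptgs2 level was given to its full-length coding transcript Ptgs2-201 (4453 nt, 10 exons) in both libraries. Ptgs1-201, the coding transcript, held 95.8% and 86.7% of the Ptgs1 level. That division was uncertain: Ptgs1-204, a processed transcript, was given 1.45 and 72.5 counts. The deposited posterior SD of that transcript, for the division of reads, was 56.9 and 78.2 counts. In the read-based quantification Ptgs1-201 held 93.2% and 92.9%.

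Pla2g4a and Ptgs2 lie 138740 bases apart on chromosome 1, in opposite orientation, and Ptgs2 was 40.3 and 40.5 times as high. The antisense gene Ptgs2os ends 67 bases before Ptgs2 on the opposite strand and was read with 0 and 2 counts. The lincRNA gene Ptgs2os2 starts 50815 bases after Ptgs2 and read 0.66 and 0.62 TPM, from 117 and 93 counts. Ptgs2 exceeded it by 94.0 and 101 times. Both neighbours were thus below 1 TPM beside one of the highest genes of the pathway.

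The 3 genes of prostaglandin E synthases were spread over a wide range. Ptges encodes the microsomal synthase that is coupled to Ptgs2 in activated macrophages (chr2:30889471-30929863, minus strand). It read 0.30 and 0.37 TPM, from 106 and 123 counts, a mean of 0.335 ± 0.0495 TPM (SD, n = 2). Ptges3, the cytosolic synthase also known as the HSP90 co-chaperone p23 (chr10:128058954-128077272, plus strand), read 25.94 and 24.74 TPM, a mean of 25.3 ± 0.849 TPM. Ptges2, a membrane-associated synthase (chr2:32395896-32405772, plus strand), read 1.68 and 1.85 TPM, a mean of 1.76 ± 0.120 TPM from 254 and 227 counts. No values of the 3 genes overlapped at gene level. By protein-coding transcripts alone, Ptges2 (0.31 TPM in both libraries) lay within the values of Ptges (0.26 and 0.37 TPM). Ptges3 was 86.5 and 66.9 times the level of Ptges, and 15.4 and 13.4 times that of Ptges2. In the read-based quantification, where noncoding transcripts held 60.8% and 62.5% of the Ptges TPM (13.3% and 0% in the alignment-based tables used otherwise), Ptges3 averaged 37.5 ± 13.3 times the level of Ptges (SD, n = 2). Ptges3 has a processed copy elsewhere, Ptges3-ps on chromosome 6 (chr6:85843980-85844459), which read 5.27 and 2.78 TPM. The deposited posterior SD of the Ptges3 count was 14.2 in replicate 1 and 10.1 in replicate 2, equal to that of Ptges3-ps and under 0.3% of the Ptges3 count.

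The level of Ptges2 depended on which of its transcripts was counted. Ptges2-203, annotated as a retained-intron transcript (765 nt, 5 exons), held 79.2% and 83.2% of its TPM but 33.0% and 36.1% of its expected count. The coding transcript Ptges2-201 (4978 nt, 7 exons) held 18.5% and 16.8% of the TPM and 66.4% and 63.9% of the count, and by itself read 0.31 TPM in both libraries. The read-based quantification gave the retained-intron transcript a like share of TPM, 80.9% and 84.4%. Among 6090 protein-coding genes with such a transcript and a mean of 100 counts or more, 1.58% had over 50% of TPM in retained-intron transcripts, the median share was 1.63%, and 99.7% had a lower share than Ptges2. The count of Ptges2-203 was 83.8 in replicate 1 and 82.0 in replicate 2. The part of nuclear RNA, which differed between the libraries as given above, in this share was not tested. The start of Ptges2-203 is shown because these are its only bases that Ptges2-201 lacks: the 67 capitals (chr2:32397471-32397537, mm10, plus strand) are the end of an intron of Ptges2-201, and the 30 bases in lower case open the next exon of both.
Ptges2-203 start: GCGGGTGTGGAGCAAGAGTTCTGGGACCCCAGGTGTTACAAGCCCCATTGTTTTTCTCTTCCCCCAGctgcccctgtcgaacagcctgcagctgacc
The remaining bases of Ptges2-203 lie in exons of Ptges2-201.

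Of the other terminal synthase genes, 4 of 6 reached 1 TPM, against 39.3% of all protein-coding genes. Hpgds, the hematopoietic prostaglandin D synthase, read 49.4 and 45.7 TPM, a mean of 47.6 ± 2.64 TPM (SD, n = 2). Ptgs2 was 1.25 and 1.37 times as high as Hpgds, and Hpgds was 165 and 124 times as high as Ptges. In the read-based quantification the ratio of Ptgs2 to Hpgds was 0.978 and 1.06, so that their order was not settled, and Hpgds was 107 and 62.8 times as high as Ptges. Tbxas1, the thromboxane A synthase, read 18.5 and 26.1 TPM, and was 61.6 and 70.6 times as high as Ptges (32.5 and 28.9 times in the read-based quantification). Fam213b, a prostaglandin F synthase gene now called Prxl2b, read 15.6 and 15.9 TPM, and the carbonyl reductase Cbr1, which can reduce prostaglandin E2, 5.97 and 5.14 TPM. Ptgds, the lipocalin-type prostaglandin D synthase, was read with 2 and 0 counts, and Ptgis, the prostacyclin synthase, with 0 in both. The D, thromboxane and F branches therefore each had a synthase gene above 1 TPM in both quantifications, and the I2 branch had none detected at this depth.

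The leukotriene branch began with a wide gap. Alox5, the 5-lipoxygenase (chr6:116410077-116461178, minus strand), read 0.10 and 0.08 TPM, from 11 and 9 counts. Alox5ap, its activating protein FLAP (chr5:149264767-149288153, plus strand), read 78.06 and 88.68 TPM, a mean of 83.4 ± 7.51 TPM (SD, n = 2) from 6261 and 5422 counts. Alox5ap was the highest of the 10 and ranked 430 among protein-coding genes, and Alox5 was the lowest and ranked 11131. The ratio of Alox5ap to Alox5 was 781 in replicate 1 (95% Clopper-Pearson interval 436 to 1565) and 1108 in replicate 2 (584 to 2426). The intervals overlap and are wide because of the few Alox5 counts. The Alox5 reads were divided over 4 of its 8 annotated transcripts, too few to say which was used.

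Part of the Alox5ap level was given to a short noncoding transcript. The coding transcript Alox5ap-201 (1251 nt) held 55.1% and 47.0% of the TPM and 82.2% and 77.4% of the count. Alox5ap-204, annotated as a processed transcript of 504 nt and 2 exons, held 37.5% and 34.4% of the TPM but 15.4% and 15.6% of the count. Its share of TPM was 27.8% and 23.3% in the read-based quantification. A further coding transcript, Alox5ap-202 (452 nt), held 7.40% and 18.6% of the TPM. With the coding transcripts alone Alox5ap read 48.8 and 58.2 TPM and passed below Ptgs2 in both libraries. Only the 31 bases in capitals (chr5:149287415-149287445, mm10, plus strand) set Alox5ap-204 apart from Alox5ap-201, in which they are intronic, and the 20 bases in lower case open the last exon, which both share.
Alox5ap-204 start: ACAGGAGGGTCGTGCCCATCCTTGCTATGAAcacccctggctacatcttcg
The counts of Alox5ap-204 were 962 and 847, with a deposited posterior SD of 37.3 and 35.1 counts for the division of reads among transcripts.

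**Figure D2:**
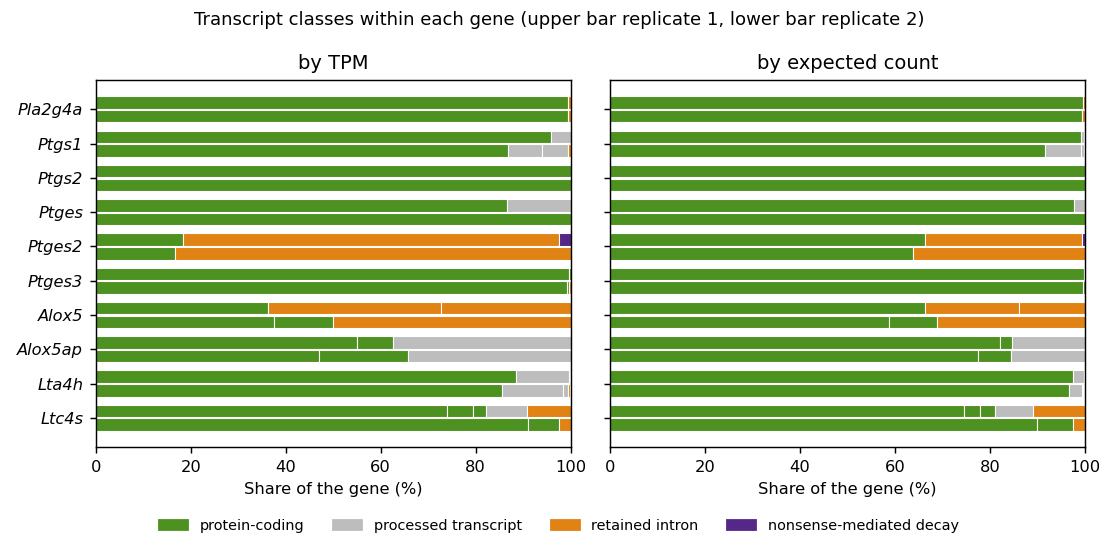
Share of each gene held by transcripts of each annotated class, in percent of TPM (left) and of expected count (right), with the upper bar of each pair for replicate 1 and the lower for replicate 2. Retained-intron transcripts fill most of the Ptges2 bars by TPM (79.2% and 83.2%) and less by count (33.0% and 36.1%), and the grey part of Alox5ap is Alox5ap-204.

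The enzymes that use leukotriene A4 were both measured. Lta4h, the hydrolase that makes leukotriene B4 (chr10:93453411-93484875, plus strand), read 9.74 and 9.89 TPM, a mean of 9.81 ± 0.106 TPM (SD, n = 2) from 1853 and 1545 counts. Ltc4s, the synthase that conjugates leukotriene A4 with glutathione (chr11:50236461-50238616, minus strand), read 1.85 and 2.53 TPM, a mean of 2.19 ± 0.481 TPM from 91 and 107 counts. Lta4h was 5.26 times as high as Ltc4s in replicate 1 (95% Clopper-Pearson interval 4.26 to 6.57) and 3.91 times in replicate 2 (3.21 to 4.80). Lta4h-201, the coding transcript, held 88.4% and 85.5% of its gene's TPM, and Lta4h-207, a processed transcript, 11.2% and 12.9%. Ltc4s-202 held 74.1% and 90.9%. The gene Gm26542 overlaps Ltc4s on the opposite strand and was read with 7 and 7.62 counts, and Gm19719 overlaps Alox5ap likewise with 2 and 5. Whether counting used strand is not given in the sources used here.

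Of 9 genes that act after leukotriene A4 or export its products, 5 reached 1 TPM, against 39.3% of all protein-coding genes. Mgst1, a microsomal glutathione transferase of the same superfamily as Ltc4s, read 61.6 and 65.7 TPM, which was 33.3 and 26.0 times the level of Ltc4s. Mgst3 read 5.77 and 5.22 TPM and Mgst2, which can make leukotriene C4 outside blood cells, 1.11 and 0.81 TPM. The dipeptidase Dpep2, which turns leukotriene D4 into E4, read 12.8 and 15.6 TPM, the exporter Abcc1 5.98 and 8.85 TPM, and Cyp4f18, which oxidises leukotriene B4, 2.17 and 3.03 TPM. Of the gamma-glutamyl transferases that turn leukotriene C4 into D4, Ggt5 read 0.32 and 0.77 TPM and Ggt1 was at 0 counts in both. The 6 other lipoxygenase genes all stayed below 1 TPM. Alox12 was read with 6 and 20 counts and Alox15, the 12/15-lipoxygenase of resident peritoneal macrophages, with 1 and 4, so Alox5 shared its low level with the rest of its family.

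Prostaglandin breakdown and transport genes reached 1 TPM in 4 of 6 cases, against 39.3% of all protein-coding genes. The reductases Ptgr2 and Ptgr1 averaged 8.51 ± 0.700 and 4.04 ± 0.219 TPM (SD, n = 2), Zadh2 (also called Ptgr3) 2.19 ± 0.106 TPM, and the prostaglandin exporter Abcc4 1.32 ± 0.0778 TPM. Hpgd, the dehydrogenase that begins prostaglandin E2 breakdown, read 0.17 and 0.12 TPM, and the uptake carrier Slco2a1 had 1 count in each library. Of the 9 prostanoid receptor genes 3 reached 1 TPM, again against 39.3%. Ptger4, an E2 receptor that raises cyclic AMP, read 10.6 and 9.60 TPM, above the other receptors in both libraries. Ptgir, the prostacyclin receptor, read 1.06 and 1.86 TPM. Ptger1 read 1.56 and 1.51 TPM, an uncertain level, since its expected counts were not whole and the read-based values were 0.250 and 0.175 TPM. Ptger2 read 0.49 and 0.76 TPM and Ptger3 0.47 and 0.32 TPM. Tbxa2r had 1 count in each library and Ptgdr2 0 and 2.05, while Ptgdr and Ptgfr were at 0 in both. High Hpgds and Tbxas1 thus stood beside receptor genes for D2 and thromboxane that were near 0 in these cells.

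Of the 5 leukotriene receptor genes 1 reached 1 TPM, against 39.3% of all protein-coding genes. Rescaled to nuclear-encoded protein-coding genes, 2 did, against 47.3%. Cysltr1, a receptor of cysteinyl leukotrienes, read 1.74 and 2.02 TPM, and Cysltr2 0.79 and 0.89 TPM. The leukotriene B4 receptor genes were lower, Ltb4r1 with 9 and 5 counts and Ltb4r2 with 0 and 2. Oxgr1, a proposed leukotriene E4 receptor, was at 0 counts in both libraries. Both cysteinyl leukotriene receptor genes thus exceeded both leukotriene B4 receptor genes, whereas among the enzymes Lta4h exceeded Ltc4s.

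**Figure D3:**
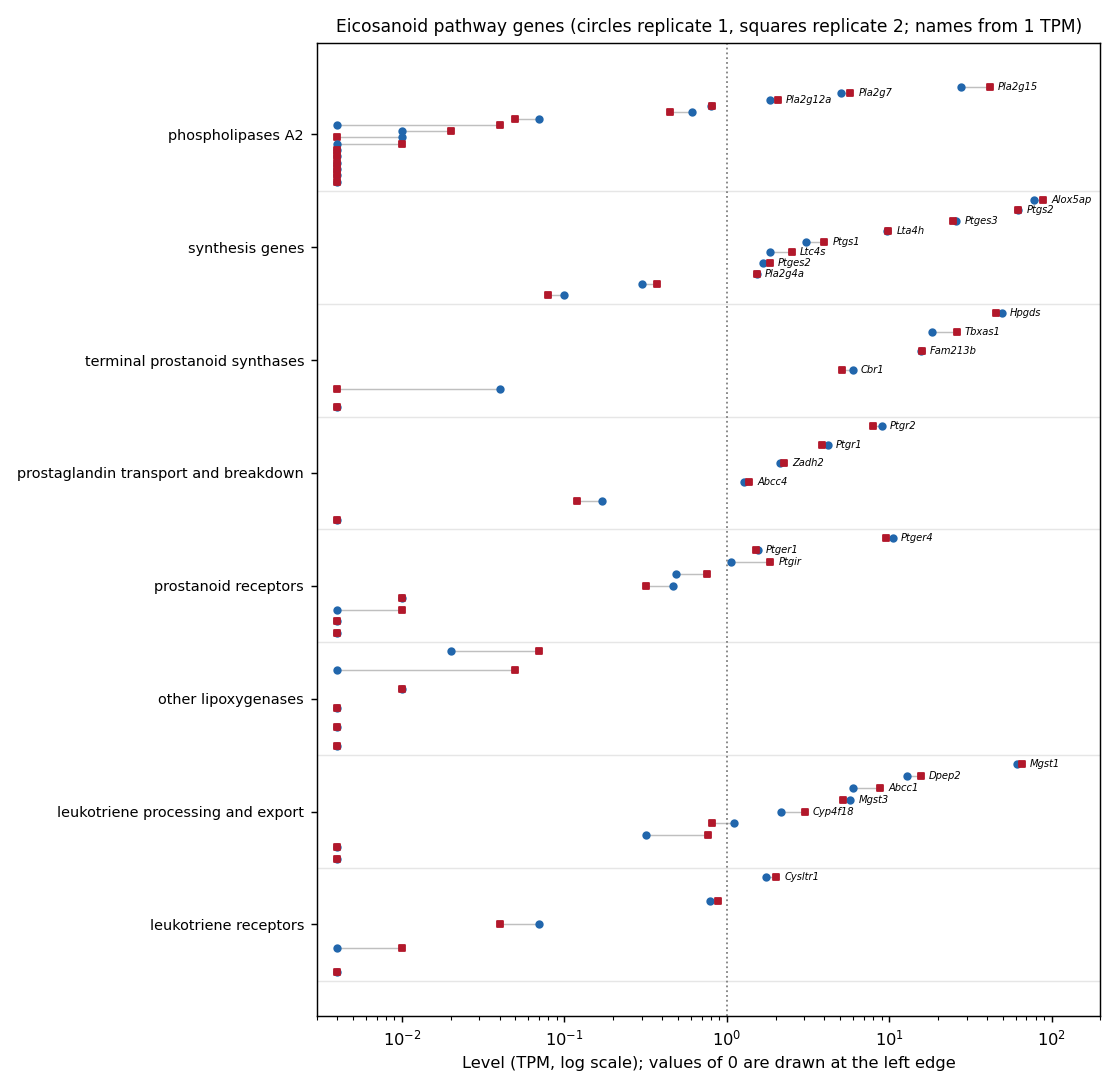
Level in TPM (log axis) of the 10 synthesis genes and of 7 lists of genes around them, with circles for replicate 1, squares for replicate 2 and names for genes with a mean of 1 TPM or more. Values of 0 are drawn at the left edge. No other lipoxygenase and only Cysltr1 of the leukotriene receptors passes the dotted line at 1 TPM, while Hpgds, Mgst1 and Pla2g15 lie near the highest synthesis genes.

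The spread between the libraries was described for each synthesis gene. Ratios of replicate 2 to replicate 1 were taken from counts scaled by TMM, a normalization that assumes most genes are alike in both. Of the 8 genes with a mean of 100 counts or more, 3 were higher and 5 lower in replicate 2, and 0 were over 2-fold apart, against 1.6% of 10091 genes at that count in either direction (1.31% above 2-fold in replicate 2 and 0.287% below). Their median absolute log2 ratio was 0.06, and that of all genes at that count 0.15. The medians were not matched for count, and 0 of 8 is near a share of 1.6%. Neither value therefore sets the synthesis genes apart. Ptgs1 was 1.22 times as high in replicate 2 (95% Clopper-Pearson interval 1.11 to 1.33) and Ptges 1.33 times (1.02 to 1.74). Ptgs2 was at 0.968 of its replicate 1 level (0.952 to 0.984) and Ptges3 at 0.916 (0.880 to 0.954). Below 100 counts on average, Ltc4s stood at 1.34 (1.01 to 1.80), and the interval of Alox5, 0.343 to 2.49, left its direction unknown. For 5 of the 10 genes the interval held 1. With 1 group of 2 libraries no test between groups was possible.

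**Figure D4:**
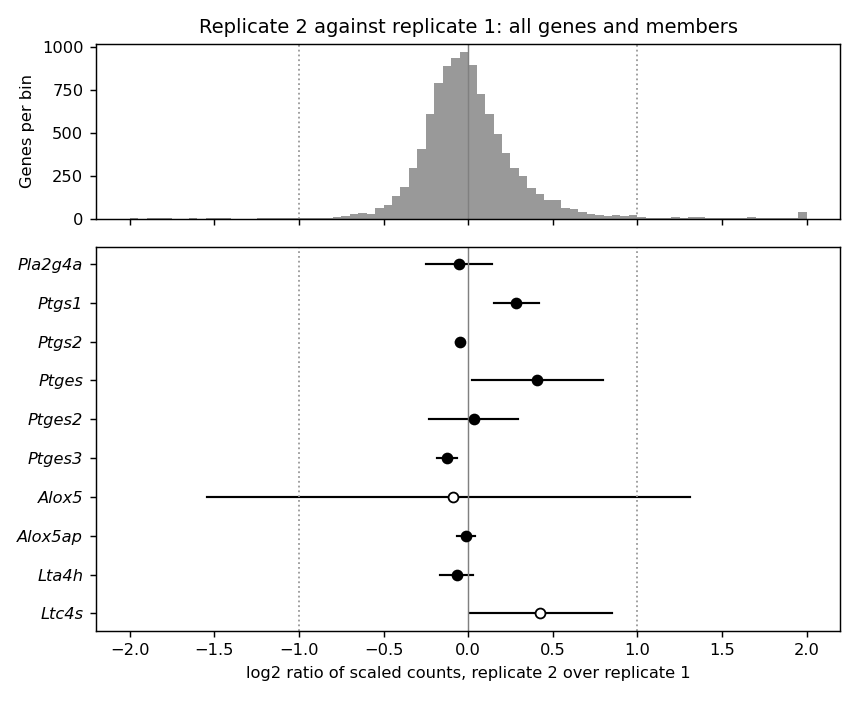
Log2 ratio of scaled counts, replicate 2 over replicate 1, for all genes with a mean of 100 counts or more (histogram, values beyond the axis in the end bins) and for each synthesis gene (points with 95% counting intervals, open where the mean is under 100 counts). All 10 points lie between the dotted lines at 2-fold, and the Alox5 interval crosses both.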

How the data were processed

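Cytosolic total RNA of lipid A-treated C57BL/6J bone-marrow-derived macrophages was sequenced in 2 libraries of 1 group, per the labels. Build mm10 and annotation GENCODE M21 are named in the deposited readme files, which also describe an alignment-based quantification (gene and transcript tables) and a read-based one (transcript tables). For the aligner, the quantifiers and the strand setting, the sources used here give nothing. The expected counts are the authors' estimates, not normalized and not always whole. TPM was deposited ready-made and sums to the same total in every table. The isoform percent was deposited by the authors as each transcript's share of its gene. The posterior SD, a deposited column read as a signal of how uncertainly reads were divided, goes with each count. Unless named otherwise, values are from the alignment-based tables.

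Spike-in and numbered entries were left out. Counts were scaled by TMM (edgeR 4.0.16, R 4.3.3) on genes averaging at least 10 counts, with 0.5 added, and DESeq2 1.42.0 gave other size factors. Detection meant a mean of 1 TPM. Ratios of counts have 95% Clopper-Pearson intervals, which cover counting error only. The ratio script was tested on simulated data. Python 3.11.15 was used otherwise. Symbols were matched through M21 and RefSeq synonyms, and of several genes with 1 symbol the one of highest mean TPM was used. 1 listed symbol, Gm26687, was unmatched. The genes, lists and comparisons were chosen with earlier results of these data known. Named were all 10 synthesis genes, up to 4 genes of highest mean TPM per list, every receptor and terminal synthase, and genes below 1 TPM in short lists. Transcripts with 10% or more of a gene were named too, except those of Ptges, Ptges3 and Alox5. Genes named beyond this rule (Cyp4f18, Mgst2, Ggt1, Ggt5, Lpcat2, the lowest genes of the lists in the closing section and markers) were chosen after their values were seen. Alternatives were the scale, the quantification, the threshold, the normalization and leaving out each replicate.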

Additional observations from a re-analysis of the deposited data

How the results depend on the processing

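The order of the 10 genes was the same when TPM was rescaled to nuclear-encoded protein-coding genes, which multiplied values by 4.63 and 4.58, while in the rescaled read-based values Pla2g4a and Ptges2 changed places. On that scale 9 genes reached 1 TPM, where 47.3% of protein-coding genes did, and the median of the 10 was 13.2 TPM. The read-based quantification spreads TPM over other entries, and there 5 genes reached 1 TPM (32.5% of protein-coding genes) with a median of 1.26 TPM, and 9 after rescaling (48.5%). Ratios to Ptges were lower there: the mean of Ptges3 to Ptges was 37.5 against 76.7, of Hpgds to Ptges 85.1 against 144, and of Tbxas1 to Ptges 30.7 against 66.1, and Ptgs2 to Hpgds was 1.02 against 1.31. At 0.5 TPM, 8 genes were detected (43.6% of protein-coding genes), and 8 in each library alone. The median was 2.19 TPM without Ptges3 and 3.54 TPM without Ptges2 (a choice made after seeing the data), and ran from 2.48 to 3.26 TPM when a replicate was left out. By protein-coding transcripts alone, 7 genes reached 1 TPM, since Ptges2 did not. The share of all protein-coding genes that reach 1 TPM counted in this way was not computed. The ratio of Ptgs2 to Ptgs1 averaged 17.8 by TPM, 29.9 by expected counts, which are not per length, and 17.8 in the read-based quantification, and ran from 15.6 to 20.0 over single libraries. That of Alox5ap to Alox5 averaged 945, with 586 by expected counts and 1276 read-based, and ran from 781 to 1108. No synthesis gene was over 2-fold apart between replicates under DESeq2 size factors, library totals, no minimum count or the read-based quantification. Over 40 alternatives the log2 replicate ratio of a synthesis gene moved by at most 0.09, and 1 changed sign. The leading transcript was the same in both quantifications for 8 of the 10 genes, and differed for Ptges and Alox5. No paired analysis was possible because the study has 1 group. Depth limits Alox5, Ltc4s and Ptges most.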

Other observations

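Genes around the arachidonate pool were looked at after the values of the synthesis genes had been seen, as a description with no test. Of 8 genes that load arachidonate back into phospholipids, 7 reached 1 TPM, against 39.3% of all protein-coding genes. The acyl-CoA synthetase Acsl4, which prefers arachidonate, read 12.1 TPM in both libraries and Acsl5 11.9 and 12.2 TPM. The acyltransferases Lpcat3 (6.93 and 9.16 TPM), Mboat7 (6.10 and 9.01 TPM) and Lpcat2 (6.17 and 7.26 TPM) followed, and Acsl6 was at 0 counts in both. Every gene of this list except Acsl6 was thus above Pla2g4a, the releasing enzyme, at 1.54 TPM.

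Of 7 genes that can free arachidonate from other lipids, 3 reached 1 TPM, against 39.3% of all protein-coding genes. Abhd12, a lysophospholipid and monoacylglycerol lipase, read 77.0 and 106 TPM, the diacylglycerol lipase Daglb 8.68 and 13.1 TPM, and the monoacylglycerol lipase Mgll 5.96 and 9.83 TPM. Dagla, the sister gene of Daglb, read 0.75 and 0.91 TPM, and Faah had 1 count in each library. All 3 genes that reached 1 TPM were higher in replicate 2. The share of all genes that were higher there was not computed, so this does not set the list apart. Of 6 genes of the cytochrome P450 and epoxide hydrolase branch only Ephx1 reached 1 TPM (6.76 and 6.98 TPM), while Ephx2, the soluble epoxide hydrolase, had 2 counts in each library.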
